A study of Homo sapiens with 9 samples.

Results

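The Fanconi anemia and homologous repair genes, 32 of the 20163 protein-coding genes of the annotation, were followed at their promoters in human erythroleukemia (HEL) cells. HEL is an established leukemia line that carries erythroid markers. The members were chosen by name from the pathway, and each was found once by its symbol in the GENCODE annotation of hg19. The mark was H3K4me3, trimethylation of lysine 4 on histone H3, which sits at active promoters, and it was mapped by CUT&RUN, in which micrococcal nuclease is brought to antibody-bound chromatin and the DNA it frees is sequenced. Control cells that received a non-targeting guide (NTC, 3 libraries) were compared with cells carrying a CRISPR knockout (KO) of METTL3, METTL14 or WTAP (2 libraries each), which are subunits of the enzyme that places m6A on mRNA. All groups were HEL cells transduced with a lentiviral vector for Cas9 and the guide. The methods describe transduced cells and not derived clones, so a library may hold edited and unedited cells together, and fewer cells with the mark cannot be told apart from less of it per cell. The labels do not say whether replicates came from separate cultures, so the p-values below measure only the spread between these libraries.

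The Fanconi anemia pathway repairs crosslinks that join both strands of DNA. A core complex of FANC proteins attaches ubiquitin to FANCI and FANCD2 at a stalled replication fork, nucleases then cut the crosslink free, and homologous recombination by the BRCA proteins and their partners restores the broken strand. Inherited loss of the pathway causes Fanconi anemia, with bone marrow failure, and loss of its BRCA members predisposes to breast and ovarian cancer.

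A member was called marked in a library when that library's list held a peak within 1 kb of any annotated start of the gene, and its value is the signal of the largest such peak. The signal is the study's coverage calibrated to a yeast spike-in, so that levels can be set side by side between libraries. The lists held 99358 peaks in all, with 21724 to 21941 in an NTC library and 3160 to 9369 in a KO library. They give no fragment totals, so sequencing depth is unknown. Values moved in fixed steps, and the lowest value in a list was 24 to 28 steps in NTC, 66 and 30 in METTL3-KO, 70 and 74 in METTL14-KO, and 74 and 94 in WTAP-KO. Calling a peak therefore needed more steps in every KO library than in NTC. A step was smaller in KO, at 0.320 to 1.07 of signal against 1.14 to 1.32 in NTC. On the calibrated signal the lowest value was thus nearly the same in every list. The part of the step counts in the results was not tested. Peak widths ran from 150 to 2000 bp and no further in any list. Of 14 genes that mark HEL cells, 8 were marked in all 3 NTC libraries, among them GATA1, TAL1 and KLF1, and 1, HBG1, in none. Of 10 markers of other tissues, 7 were marked in none and 3 in all 3.

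Promoters of the members held the letters of an E2F site more often than promoters at large. The window from 250 bases before to 50 bases after the canonical start was searched on both strands. GCGGGAA, the core of a site for E2F, the family of factors that switches on genes of DNA replication and repair at the entry into S phase, was in 16 of the 32 members (50%) and in 8.65% of all 19862 promoters of this length. With the variant GCGCGAA the count was 17 members (53.1%) against 11.4% of all promoters. The ETS core CCGGAAG was in 9 members (28.1%) against 14.2%, the NRF1 site GCATGCGC in 3 (9.38%) against 4.27%, and CCAAT in 13 (40.6%) against 36.0%. The KLF-type core CCNCNCCC was in 20 members (62.5%) against 69.7%, and TTTGAA, the cell cycle homology region, in 5 (15.6%) against 11.5%. The GC content of the members' windows was close to that of all promoters, with medians of 64% and 63.7%, while the median number of CpG was 28.5 against 23. These matches are descriptions of letters and not measured sites.

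**Figure D1:**
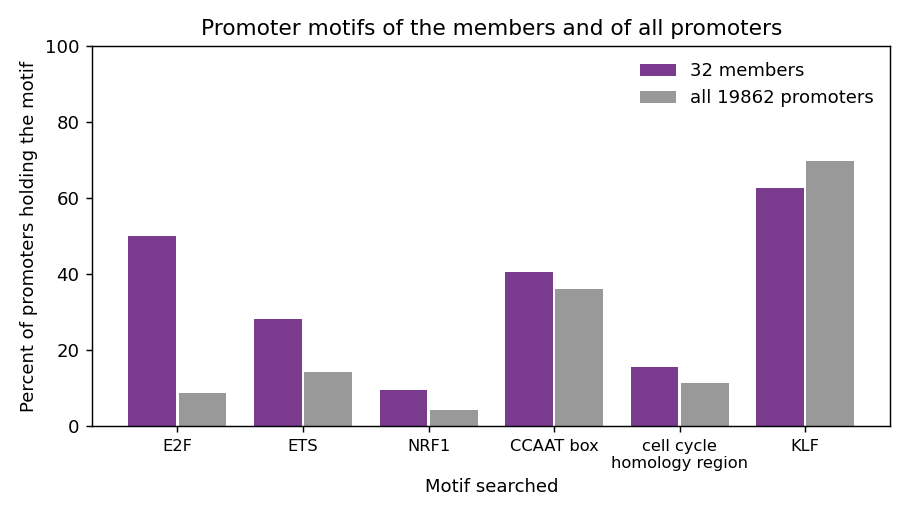
Percent of the 32 members (purple) and of all 19862 promoters (grey) whose 300-base window holds each motif on either strand, with E2F drawn for GCGGGAA. The E2F core stands at 50% of the members and 8.65% of all promoters, and the KLF-type core at 62.5% and 69.7%.

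The E2F stretches below are examples from the searched window, whose bounds limit how far from the start a match can lie. They are written 5′ to 3′ on the strand of the gene, from the hg19 reference, with the 7 matching letters in capitals, and come from 5 of the 6 roles into which the members were sorted.
FANCG (chr9:35080006-35080034, minus strand): cctcggtggaaGCGGGAAcccaggaggac
FANCE (chr6:35420122-35420150, plus strand): tttccgacagcGCGGGAAcggctgcggct
FANCD2 (chr3:10068108-10068136, plus strand): cgtcgggcctgGCGGGAAagtcgaaaact
BRIP1 (chr17:59940870-59940898, minus strand): gggggcgggagGCGGGAAttcgtctcggg
XRCC2 (chr7:152373188-152373216, minus strand): tggcgttggtgGCGGGAAagttgagtctc
RAD51AP1 (chr12:4648024-4648052, plus strand): tctggttttggGCGGGAAttgaaaccgcc
BLM (chr15:91260492-91260520, plus strand): agcctgaggggGCGGGAAcagatgtccga
Measured from the canonical start, counted as 0, to the first capital, these matches lie at -84 in FANCG, 18 in FANCE, -2 in FANCD2, 2 in BRIP1, 21 in XRCC2, -21 in RAD51AP1 and -74 in BLM. Matches not shown, with the variant GCGCGAA included, ran from -198 in MAD2L2 to 42 in RAD51D. The stretches of FANCG and BLM lie outside annotated exons, and those of the other 5 overlap an exon over all 29 bases. Members with and without the letters were found both among those with KO peaks and among those without. In these counts an E2F core means GCGGGAA or the variant GCGCGAA. Of the 8 members marked in at least 4 of the 6 KO libraries, 4 held an E2F core. These were BRCA1, marked in 2 NTC libraries, and BLM, FANCE and RAD51AP1, which had no NTC peak and cannot be called kept. ERCC1, FANCI and BRCA2, marked in every NTC library and in at least 4 KO libraries, held none. Of the 3 with a peak in every NTC library and none in KO, 2 held the core. Over all genes marked in the 3 NTC libraries, 86.1% of the 1191 with an E2F core and 84.7% of the 7277 without had no peak in WTAP-KO. The shares with and without the core were 45.4% and 46.4% in METTL3-KO and 73.5% and 73.3% in METTL14-KO. Among the 18 members so marked, those with the core had no peak more frequently than those without, at 37.5% of 8 against 10% of 10 in METTL3-KO, 87.5% against 60% in METTL14-KO and 87.5% against 70% in WTAP-KO. Their median NTC signal was also lower, 5469 against 11504, and the part of that level in these counts was not tested.

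About as many members were marked in METTL3-KO as in NTC cells, and fewer in each library of the other KO groups. The 3 NTC libraries held 22, 21 and 19 marked members, the METTL3-KO libraries 23 and 20, the METTL14-KO libraries 11 and 5 and the WTAP-KO libraries 6 and 8. As a mean this was 20.7 ± 1.53 (SD, n = 3) in NTC, 21.5 ± 2.12 (n = 2) in METTL3-KO, 8.0 ± 4.24 (n = 2) in METTL14-KO and 7.0 ± 1.41 (n = 2) in WTAP-KO. All 4 METTL14-KO and WTAP-KO libraries held fewer marked members than any NTC library. An exact permutation test over 35 splits, with the one-sided p doubled, gave p = 0.0571. That is the least that doubling allows and does not pass 0.05. The test was not planned and the members were chosen with results known, so nothing is read from its p. METTL3-KO and NTC counts overlapped. Over all protein-coding genes the number marked was 71.8% of the NTC mean in METTL3-KO, 36.2% in METTL14-KO and 25.6% in WTAP-KO, against 104%, 38.7% and 33.9% for the members. The members were not the same in NTC and METTL3-KO, because 8 of the 24 members with a METTL3-KO peak had no NTC peak at all.

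**Figure D2:**
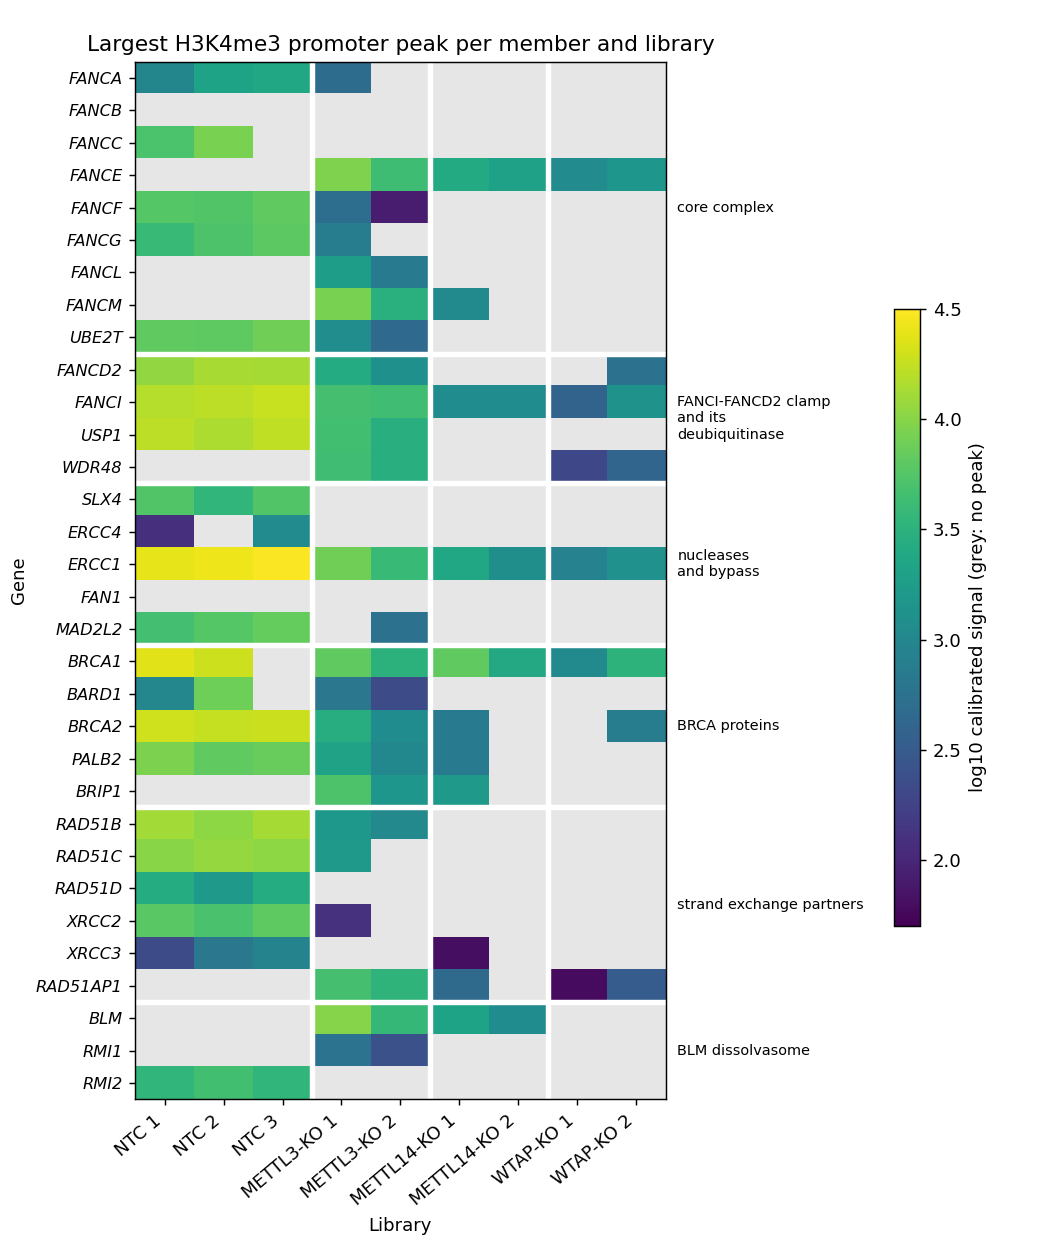
Largest promoter peak of each of the 32 members (rows, by role) in each of the 9 libraries (columns), as log10 of the calibrated signal, with grey for no listed peak. Rows with a peak in all 3 NTC libraries are lower or grey in the KO columns, while for 8 rows, among them FANCE and BLM, NTC is grey and METTL3-KO is the highest. METTL14-KO and WTAP-KO are mostly grey, with FANCE, FANCI, ERCC1 and BRCA1 marked in every library of both. The BRCA1 values there come from peaks far upstream of its canonical start.

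The signal was tested with limma on log2(signal + 30.1), where 30.1 is the smallest signal of any gene and serves as pseudocount, over the 12037 genes marked in at least 2 libraries, with Benjamini-Hochberg adjustment at 0.05. Of the 32 members 30 were tested, since FANCB and FAN1 had no peak in any library. A group with no listed peak has the pseudocount alone in each of its libraries and adds no spread to the fit. For members with no KO peak, such as SLX4, RAD51D and RMI2, only the NTC libraries add spread. Their small adjusted p-values are thus not read as stronger changes than those of members with KO peaks. Over all KO groups together 19 members were lower and 8 higher than NTC, while 73% of all genes tested were lower and 14.3% higher. In METTL3-KO 15 were lower and 8 higher, with 60.9% and 14% of all genes. In METTL14-KO 18 were lower and 2 higher, with 68.8% and 8.38% of all genes, and in WTAP-KO 18 were lower and 2 higher, with 69.7% and 6.81%. The share of members called lower (63.3% of 30 over the KO groups together, 50% in METTL3-KO alone, 60% in each of the others) was below that of all genes in each comparison. The share called higher was 26.7% for all KO groups and METTL3-KO and 6.67% for METTL14-KO and WTAP-KO, from which nothing is read, since all 8 members called higher had no NTC peak and entered the test only through KO libraries. With genes marked in at least 4 libraries the number higher was 4 for all KO groups and 4 for METTL3-KO. The median change of the 30 members for all KO groups, -5.17 on this scale, was close to that of all genes tested, -5.30. In METTL3-KO the medians were -2.64 and -3.48, in METTL14-KO -5.43 and -5.57, and in WTAP-KO -5.51 and -5.97. Centring the libraries on the 665 genes marked in all 9 moved the median of all genes for all KO groups from -5.30 to -3.62 and that of the members to -3.55.

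The core complex, which binds the stalled fork and adds ubiquitin to FANCI and FANCD2, had no METTL14-KO or WTAP-KO peak at any of the 5 members that were marked in NTC cells. UBE2T, the ubiquitin-conjugating enzyme of the complex, had signals of 6495, 6413 and 7892 in NTC, 1183 and 450 in METTL3-KO and no peak in the 4 other KO libraries. FANCF, an adaptor of the complex, had 5754, 5485 and 6505 in NTC and 511 and 83.3 in METTL3-KO, and no peak in the rest. FANCG had 3892, 5205 and 6272 in NTC and 777 in METTL3-KO replicate 1 alone. For these 3 genes every KO library lay below every NTC library, with METTL3-KO means of 11.8%, 5.03% and 7.58% of the NTC means. FANCA, the scaffold most often mutated in Fanconi anemia, was weak in NTC at 969, 2110 and 2367 and had a KO peak of 485 in METTL3-KO replicate 1 alone. All 4 were lower over all KO groups (adjusted p = 2.49e-06 for UBE2T, 1.56e-05 for FANCF, 0.00068 for FANCG and 0.00138 for FANCA).

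FANCC, another core subunit, was marked in NTC replicates 1 and 2 (5086 and 8553) and in no other library. It was called lower over all KO groups (adjusted p = 0.0337), but lost the call when any 1 of the 6 KO libraries was left out. FANCB had no peak in any library. The other 3 core members had no NTC peak. FANCE, which joins the core complex to FANCD2, had a peak in all 6 KO libraries, at 9139 and 4278 in METTL3-KO, 2560 and 2008 in METTL14-KO and 1125 and 1480 in WTAP-KO. FANCM, the translocase that recognises the stalled fork, had 8574 and 2975 in METTL3-KO and 1080 in METTL14-KO replicate 1. FANCL, the ubiquitin ligase subunit, had 1843 and 720 in METTL3-KO alone. For all 3 the METTL3-KO libraries were the highest of the KO libraries.

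FANCI and FANCD2, which form the clamp that closes on DNA once ubiquitin is added, were among the most strongly marked members. FANCI (chr15:89787176-89860492) had signals of 15297, 16731 and 18226 in NTC, 4704 and 4429 in METTL3-KO, 1167 and 1165 in METTL14-KO, and 390 and 1345 in WTAP-KO. It was marked in all 9 libraries with no overlap between NTC and any KO group, and its KO means were 27.3%, 6.96% and 5.18% of the NTC mean. The change was -3.38 ± 0.38 on the log2 scale over all KO groups (adjusted p = 0.000164). Relative to the 665 genes marked in every library it was -0.79 ± 0.35 and no longer passed the test (adjusted p = 0.0778). FANCI is itself among these genes, which were picked for a peak in every KO library. Centring thus takes the mean change of such genes out of its own, and is no separate check on it.

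FANCD2 had 11004, 13492 and 13358 in NTC, 2621 and 1272 in METTL3-KO, none in METTL14-KO and 571 in WTAP-KO replicate 2 alone. It was lower in METTL14-KO (adjusted p = 0.000528) and WTAP-KO (adjusted p = 0.00202), while METTL3-KO did not pass (adjusted p = 0.0759). Both METTL3-KO values still lay below every NTC value, with a mean of 15.4% of the NTC mean. USP1, the enzyme that takes the ubiquitin off again, had 16764, 14485 and 16923 in NTC and 4520 and 2927 in METTL3-KO, with no peak in the other KO libraries. Its signal thus fell to 23.2% of NTC in METTL3-KO and out of the lists in METTL14-KO and WTAP-KO, although its NTC level was higher than that of 94.8% of genes marked in all NTC libraries. WDR48, the partner that activates USP1, had no NTC peak, 4431 and 2846 in METTL3-KO, none in METTL14-KO and 202 and 413 in WTAP-KO. The start of SCN11A on the other strand lies 32 bp from that of WDR48, so the WDR48 peaks cannot be given to either gene.

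Among the nucleases and their partners, ERCC1 and SLX4 marked the extremes. ERCC1, which together with ERCC4 (XPF) cuts beside the crosslink, had the highest NTC signal of all members, 25080, 26574 and 30298, above that of 99.4% of marked genes. It kept a peak in every KO library, at 7858 and 3869 in METTL3-KO, 2383 and 1256 in METTL14-KO and 882 and 1305 in WTAP-KO, which is 21.5%, 6.66% and 4.0% of the NTC mean (change over all KO groups -3.63 ± 0.32, adjusted p = 4.79e-05). Such percents depend on the calibration. One step of the signal was 1.14 to 1.32 in the NTC libraries and 0.320 to 1.07 in the KO libraries, and with each value divided by its library's step the median over FANCI, ERCC1 and BRCA2 rose from 21.5% to 47.0% in METTL3-KO, from 6.66% to 19.2% in METTL14-KO and from 4.0% to 14.2% in WTAP-KO. SLX4, the scaffold that gathers the nucleases, had 5553, 3509 and 5554 in NTC and no peak in any of the 6 KO libraries (adjusted p = 6.17e-08). MAD2L2, a subunit of the polymerase that copies past the lesion, had 4662, 5832 and 6960 in NTC and 572 in METTL3-KO replicate 2 alone (adjusted p = 0.000347). ERCC4 itself was at 120 and 1111 in NTC replicates 1 and 3 and listed nowhere else, and its change did not pass the test (adjusted p = 0.0629). FAN1, a further nuclease of the pathway, had no peak in any library.

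The BRCA proteins included one of the most strongly marked members, BRCA2, and the member with the least certain change, BRCA1. BRCA2, which is needed for strand exchange in homologous recombination, had 20029, 17961 and 18944 in NTC, 2789 and 1152 in METTL3-KO, 710 in METTL14-KO replicate 1 and 778 in WTAP-KO replicate 2. Its group means were 10.4%, 1.87% and 2.05% of NTC, and the change over all KO groups was -5.77 ± 1.37 (adjusted p = 0.00698). It did not pass after centring on the 665 genes (-3.74 ± 1.67, adjusted p = 0.0784). ZAR1L starts 145 bp away on the other strand. PALB2, which binds BRCA2 to BRCA1, had 8762, 6609 and 7075 in NTC, 2078 and 1008 in METTL3-KO and 688 in METTL14-KO replicate 1 (adjusted p = 0.00199), and shares its promoter with DCTN5, 156 bp away. BARD1, the partner of BRCA1 in their ubiquitin ligase, varied in NTC (981, 7666 and none) and had 649 and 217 in METTL3-KO. Its change did not pass (adjusted p = 0.12), and the nearest peak in NTC replicate 3 lay 1595 bp from a start.

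BRCA1, which sits at the break and directs repair to recombination, had 23401 and 19277 in NTC replicates 1 and 2 and no peak in replicate 3. The KO values were 6626 and 3135 in METTL3-KO, 6482 and 2449 in METTL14-KO, and 1062 and 3257 in WTAP-KO. The METTL14-KO and WTAP-KO values came from peaks lying from 44069 to 46255 bp upstream of the canonical start, beside another annotated start of BRCA1. Starts of opposite-strand genes were searched at the canonical start alone. Whether these far peaks belong to another gene was therefore not tested. Within 1 kb of the canonical start the largest peaks were 1774 and 489 in METTL14-KO and 560 and none in WTAP-KO. The change over all KO groups was 0.45 ± 2.26 (adjusted p = 0.858). With NTC replicate 3 left out the change was -2.70 ± 0.63 (adjusted p = 0.0101), and at the canonical start alone -1.51 ± 2.42 (adjusted p = 0.577). The 2 NTC peaks at the start were 1764 and 1829 bp wide. BRIP1, the helicase that binds BRCA1, had no NTC peak, 5203 and 1471 in METTL3-KO and 1606 in METTL14-KO replicate 1.

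RAD51B, RAD51C, RAD51D, XRCC2 and XRCC3, related proteins that assist strand exchange in recombination, were all lower in KO cells. RAD51B had 12885, 10634 and 13430 in NTC and 1543 and 1043 in METTL3-KO. RAD51C had 10024, 11486 and 10566 in NTC and 1630 in METTL3-KO replicate 1 alone. XRCC2 had 6042, 4935 and 6467 in NTC and 125 in METTL3-KO replicate 1 alone. None of these 3 had a METTL14-KO or WTAP-KO peak, and the METTL3-KO means were 10.5%, 7.62% and 1.08% of NTC. RAD51D, at 2727, 1625 and 2730 in NTC, was listed in no KO library. XRCC3 was weak throughout, with 221, 638 and 903 in NTC and 62.9 in METTL14-KO replicate 1. For these 5 genes over all KO groups the adjusted p ran from 1.87e-07 for RAD51D to 0.000925 for RAD51C. RAD51AP1, which also promotes strand exchange, went the other way in the lists, with no NTC peak, 4752 and 3332 in METTL3-KO, 469 in METTL14-KO replicate 1 and 60.6 and 327 in WTAP-KO.

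The BLM dissolvasome, which takes apart the joined intermediates at the end of recombination, was divided. RMI2 had 3531, 4490 and 3528 in NTC and no KO peak (adjusted p = 1.55e-08). BLM, the helicase, had no NTC peak, 9692 and 3676 in METTL3-KO, 2101 and 1156 in METTL14-KO and none in WTAP-KO. RMI1 had no NTC peak within 1 kb and 580 and 248 in METTL3-KO. The nearest NTC peaks of RMI1 lay 1088, 1090 and 2118 bp from a start, and with a 3 kb window RMI1 turned from higher to lower in KO cells (-4.10 ± 0.44, adjusted p = 0.000135).

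The 8 members without an NTC peak and with a KO peak were FANCE, FANCL, FANCM, WDR48, BRIP1, RAD51AP1, BLM and RMI1, which is 8 of the 10 members without an NTC peak. Of the 9594 genes without an NTC peak 19.9% had a KO peak. Each of the 8 was marked in both METTL3-KO libraries, and they made up 8 of the 19 members so marked (42.1%) against 26.5% of the 6049 genes marked in both. A missing NTC entry is not a measured low level. Peaks close to the upper bound of width were more frequent in NTC, where 413 to 463 peaks per library were wider than 1900 bp, against 40 and 50 in METTL3-KO. Among genes marked in both METTL3-KO libraries, the share without an NTC peak went from 9.09% in the lowest decile of METTL3-KO signal to 52.4% in the highest. FANCE and BLM lay in decile 10, FANCM in decile 9, WDR48, BRIP1 and RAD51AP1 in decile 8, FANCL in decile 4 and RMI1 in decile 1. The METTL3-KO peaks of the 8 members had a median width of 1101 bp, against 591 bp for the 11 members that also had an NTC peak. Over all genes these medians were 865 and 515 bp. Whether the 8 promoters carried NTC peaks too wide to be listed was not tested, since no coverage track was used here, and the fitted changes of these members are therefore not given as folds.

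Set beside genes of equal NTC signal, the members were without a peak less frequently in METTL3-KO, more frequently in METTL14-KO and about as frequently in WTAP-KO, which was counted and not tested. Of the 18 members marked in all 3 NTC libraries, 4 (22.2%) lacked a peak in both METTL3-KO libraries, against 46.3% of all 8495 such genes and 34.2% of genes in the same deciles of NTC signal. In METTL14-KO 13 (72.2%) had none, against 73.3% of all and 62.7% of equal NTC signal. In WTAP-KO 14 (77.8%) had none, against 84.9% and 76.6%. The 3 members without a peak in any KO library, SLX4, RAD51D and RMI2, were 16.7% of the 18, against 45.8% of all and 33.8% of equal NTC signal. The members started from a higher level than other genes, with a median NTC signal of 6424 against 5148. With 18 members the differences from genes of equal signal in single KO groups come to about 2 genes at most. They also moved with the height a peak had to reach, since a threshold at the median signal of NTC peaks (2095) left 10 members with no METTL3-KO peak. For all 18 members every KO value lay below every NTC value, as it did for 96.8% of the 8495 genes.

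**Figure D3:**
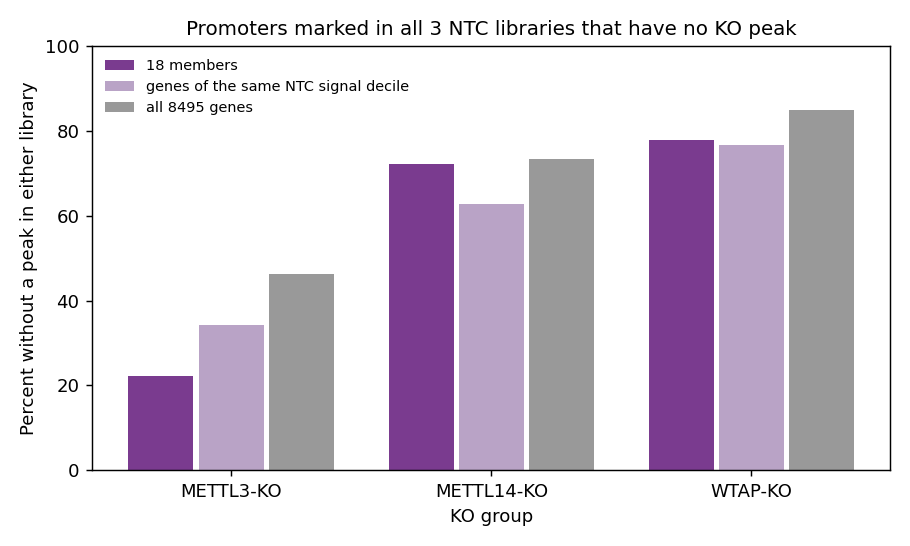
Percent of promoters marked in all 3 NTC libraries that had no peak in either library of each KO group, for the 18 members (dark purple), genes of the same decile of NTC signal (light purple) and all 8495 genes (grey). The members stand at 22.2%, 72.2% and 77.8%, below genes of equal signal in METTL3-KO alone.

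The letters searched above were also set out for a promoter that no KO library listed and one that every library listed. The stretch before the start of SLX4 is shown with that of FANCI, which kept its peak in all 9 libraries, to the first annotated exon and in the sense of the gene. Capitals mark matches to the E2F, ETS, NRF1, CCAAT and KLF-type letters given above on either strand.
FANCI (chr15:89787026-89787175, plus strand): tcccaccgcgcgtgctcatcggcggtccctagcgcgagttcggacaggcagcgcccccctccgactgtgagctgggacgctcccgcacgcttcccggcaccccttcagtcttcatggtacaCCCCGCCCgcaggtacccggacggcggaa
SLX4 (chr16:3661608-3661728, minus strand): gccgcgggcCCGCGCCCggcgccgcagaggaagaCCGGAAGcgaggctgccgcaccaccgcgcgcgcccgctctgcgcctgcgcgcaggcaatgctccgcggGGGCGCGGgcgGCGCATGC
Over the full 300-base windows FANCI held the KLF-type core alone, and SLX4 held KLF-type, ETS and NRF1 letters. RAD51D held an ETS core at -2, a KLF-type core at 38 and an E2F core at 42 from its start. All 3 members with NTC peaks in every library and no KO peak thus held the KLF-type core, as did FANCI and 62.5% of the members.

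METTL3-KO was higher than the other KO groups at part of the members. In the test against the averaged METTL14-KO and WTAP-KO groups, 16 of the 30 members were higher in METTL3-KO and 0 lower, while 29.5% of all genes tested were higher and 0.582% lower. At an unadjusted p under 0.05 in limma the count of members lower was also 0. By role the 16 were 5 of 8 tested core members, all 4 of the clamp group, 1 of 4 nuclease members, 2 of 5 BRCA proteins, 2 of 6 in the strand exchange group and 2 of 3 of the dissolvasome. Both METTL3-KO values lay above all 4 other KO values at 17 members, as they did for 41.6% of genes tested. Among the 16, FANCL and RMI1 were marked in the METTL3-KO libraries alone, so the requirement of a peak in 2 libraries fixed their direction and their tests give no support. FANCM and BRIP1 had a further peak in METTL14-KO replicate 1 alone, so they too passed this requirement only through METTL3-KO and give no support. All 8 members with a KO peak but no NTC peak were among the 16, and their part in the share of members was not tested. With genes marked in at least 4 libraries, which also leaves out FANCM and BRIP1, 12 members were higher. The smallest adjusted p-values of the others belonged to USP1 (3.06e-05), RAD51B (3.85e-05), WDR48 (4.72e-05), UBE2T (0.000221) and BLM (0.000272). These calls depended on how a peak was counted. USP1 did not pass with a peak required over a start (1.53 ± 0.78, adjusted p = 0.241), and with the threshold at the median NTC signal RAD51B and UBE2T showed no difference (adjusted p = 1 for both) and BLM did not pass (adjusted p = 0.0803). For FANCI, with a peak in every library, the difference was 2.27 ± 0.46 (adjusted p = 0.0125), for ERCC1 1.99 ± 0.39 (adjusted p = 0.011) and for FANCE 1.85 ± 0.39 (adjusted p = 0.0144). The median difference over the members was 2.97 against 1.71 for all genes tested. Of the 19 members marked in both METTL3-KO libraries, replicate 1 was above replicate 2 at all 19 with a median ratio of 2.14, and over all genes at 87.3% with a ratio of 1.76. Without METTL3-KO replicate 1 the number of members higher was 8, and after centring on the 665 genes it was 9.

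**Figure D4:**
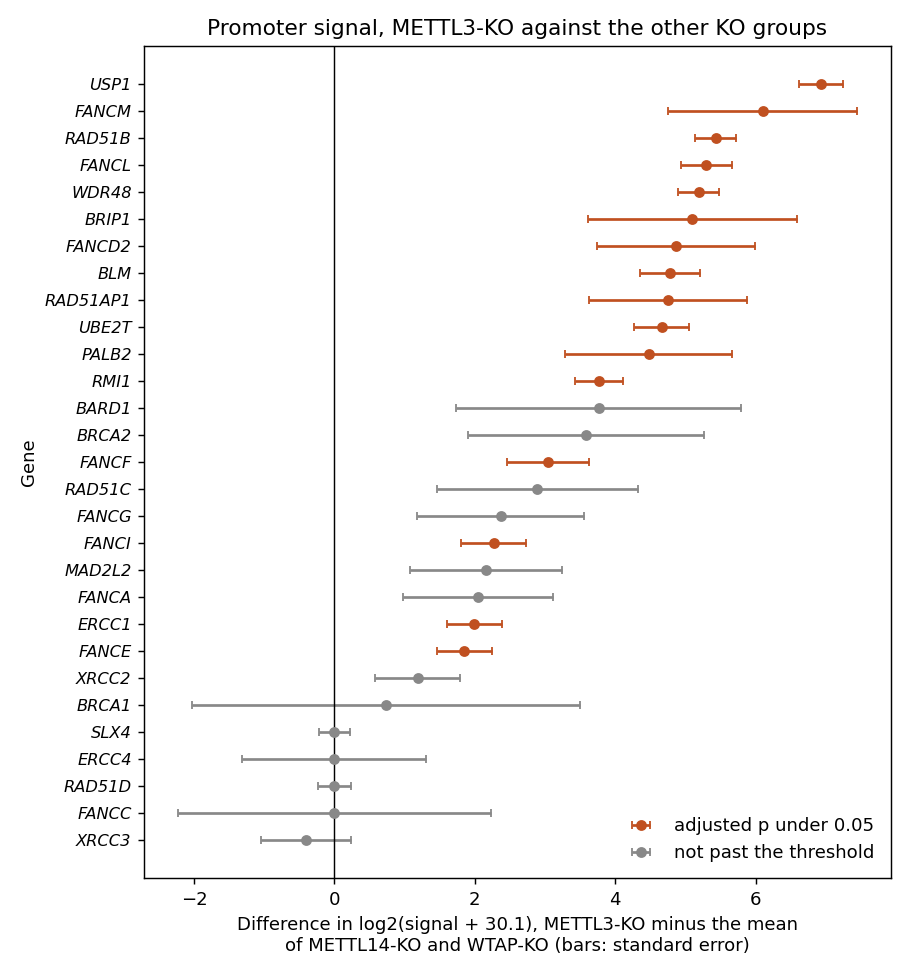
Difference in log2(signal + 30.1) between METTL3-KO and the averaged other KO groups for 29 tested members (RMI2, with no KO peak, has no error and is left out), as points with standard errors, in orange for adjusted p under 0.05. The 16 called members all lie above 0, and where the other groups had no peak, as for USP1, the size depends on the pseudocount.

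Where a peak remained it was narrower. The largest peaks of the members had a median width of 1488 bp in NTC, 628 bp in METTL3-KO, 350 bp in METTL14-KO and 265 bp in WTAP-KO. All protein-coding genes went the same way. Their library medians averaged 1101 bp in NTC, 532 bp in METTL3-KO, 372 bp in METTL14-KO and 354 bp in WTAP-KO, against 1418, 648, 350 and 264 bp for the members. The METTL3-KO medians of the members include those without an NTC peak. All 14 members with a peak in all NTC libraries and in METTL3-KO had narrower METTL3-KO peaks, with a median of 38.6% of the NTC width and a range from 10.2% (XRCC2) to 69.7% (ERCC1). At BRCA2 the NTC peaks ran from 573 bp before to 1322 bp after the canonical start, while the KO peaks lay between 307 and 845 bp after it. At ERCC1 the largest METTL14-KO and WTAP-KO peaks were 158 to 287 bp wide and lay 546 to 832 bp before the start, inside the span of the NTC peaks. Of the largest peaks 46 of 62 covered the canonical start in NTC, 25 of 43 in METTL3-KO, 7 of 16 in METTL14-KO and 2 of 14 in WTAP-KO. No share over all genes stands beside these counts or beside the 14 narrower members, so they are not read as particular to the members. A start of another protein-coding gene on the opposite strand lay within 1 kb of the canonical start for 11 of 32 members (34.4%), against 13.9% of all genes. Peaks at these 11 (FANCB, FANCF, FANCM, WDR48, SLX4, BRCA2, PALB2, RAD51C, XRCC3, RAD51AP1 and RMI1) cannot be given to the member alone. Other annotated starts were not searched in this way.

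**Figure D5:**
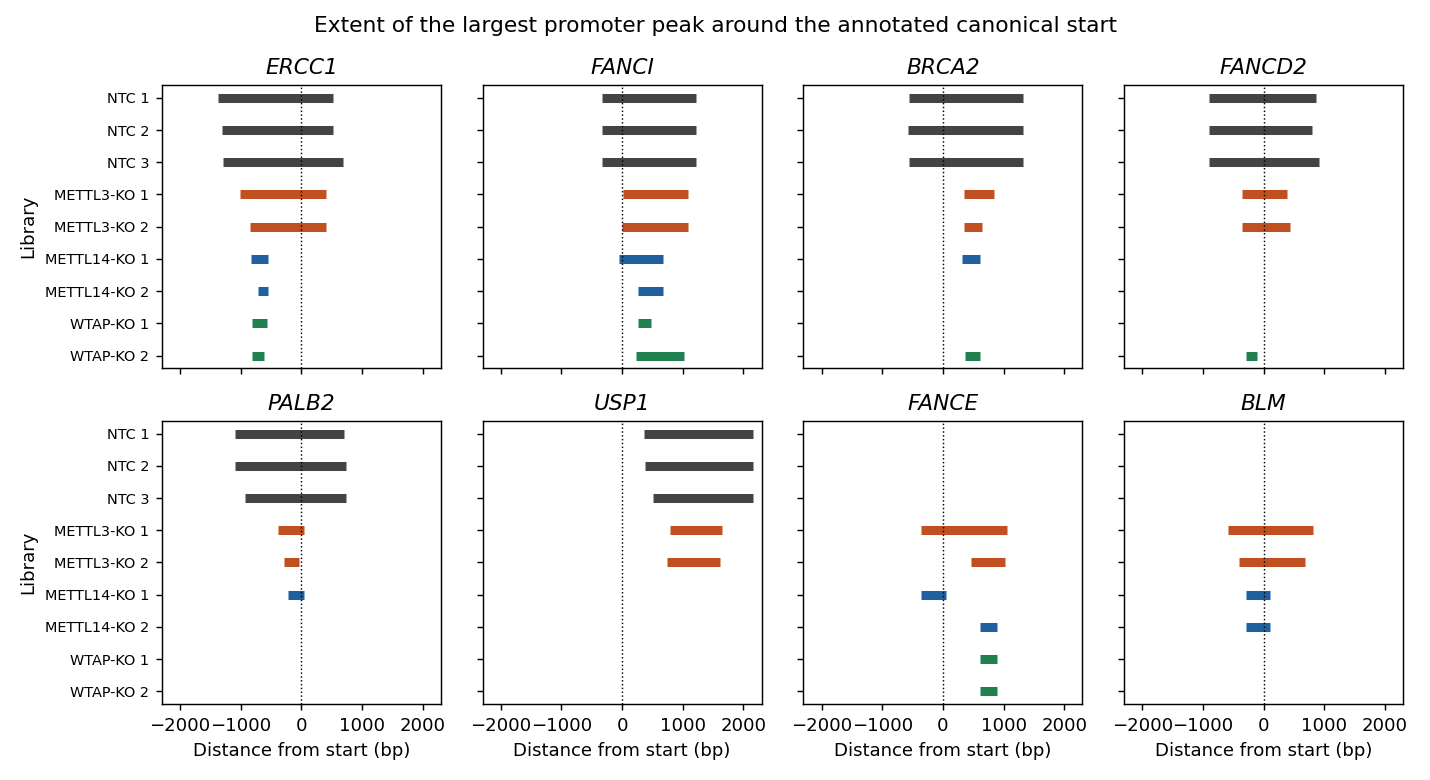
Extent of the largest promoter peak in each of the 9 libraries for 8 members, in bp from the canonical start (dotted line at 0, positive in the direction of transcription), coloured by group. NTC peaks are the widest, KO peaks lie inside them, and FANCE and BLM have KO peaks without a listed NTC peak.

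The rest of the pathway was lower over all KO groups at a share near that of the members, and was higher in METTL3-KO than in the other KO groups at a smaller share. Of 55 further genes of crosslink repair and recombination 39, 38 and 38 were marked in the NTC libraries, 37 and 39 in METTL3-KO, 24 and 16 in METTL14-KO and 10 and 13 in WTAP-KO. Of the 53 tested, 32 (60.4%) were lower and 10 (18.9%) higher over all KO groups, with a median change of -5.29, against 63.3% and 26.7% of the members. In METTL14-KO 9 of the 53 were higher than NTC, against 2 of the 30 members. Among all genes tested 14.3% were higher over all KO groups and 8.38% in METTL14-KO. Of the 55 further genes 11 had no NTC peak, and 10 of these 11 had a KO peak. Such genes could enter the test only through KO libraries, so nothing is read from the numbers higher than NTC. In METTL3-KO 12 (22.6%) were higher than in the other KO groups and 0 lower, against 53.3% of the members and 29.5% of all genes tested. None of these differences between lists was tested. Of the 33 marked in all NTC libraries 12 (36.4%) had no METTL3-KO peak, against 22.2% of the members, 24 (72.7%) no METTL14-KO peak and 26 (78.8%) no WTAP-KO peak. Among these 33 the largest fitted falls were at RAD54L, USP7 and UIMC1. RAD54L, a motor protein of recombination, had 7477, 8804 and 11584 in NTC and no KO peak (adjusted p = 2.62e-08). USP7 had 8569, 8597 and 9936 in NTC and no KO peak (adjusted p = 1.26e-08). UIMC1, which brings BRCA1 to ubiquitin at breaks, had 3780, 12689 and 13437 in NTC and 119 in METTL3-KO replicate 2 alone (adjusted p = 3e-05). Without a KO peak, the fitted falls of RAD54L and USP7 follow from the NTC signal and the pseudocount and do not rank a measured loss. The smallest fall among the 33 was at MUS81, a nuclease subunit, with 5950, 6058 and 4823 in NTC against 1446 and 8597 in METTL3-KO, 8244 and 3643 in METTL14-KO and 1299 and 1840 in WTAP-KO (-0.84 ± 0.59, adjusted p = 0.224). MUS81 NTC and KO values overlapped. BABAM1 and RECQL5 came next among the 33 with changes of -3.70 ± 1.18 and -3.84 ± 1.05 and passed the test (adjusted p = 0.0238 and 0.0127). Some genes marked in fewer NTC libraries had smaller changes, among them POLQ at 0.15 ± 2.24 (adjusted p = 0.954).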

How the data were processed

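H3K4me3 CUT&RUN was performed by the authors on 200000 HEL cells per library. Per the labels and the methods, paired-end reads were aligned with Bowtie to hg19 and to the yeast build sacCer3, duplicates were removed with Picard, and peaks were called in each library, not on pooled libraries. Tool versions were not given in the sources used here. Each list, as the authors deposited it, gives positions and a spike-in calibrated signal. Count tests do not suit such values. Groups and replicate numbers came from the labels. List starts were taken to be 0-based, which the files do not state. Gene starts came from GENCODE on hg19. All 25 chromosome names matched and 0 peaks passed a chromosome end. Signals were tested with limma 3.58.1 (R 4.3.3; trend option, 4 groups in 1 fit), which was tested on simulated data, and tabulated with pandas 2.3.3 and numpy 2.4.6 under Python 3.11.15. Per-library values were given for members marked in at least 4 KO libraries, lost in all, or missing in NTC, and for those differing most between KO groups. The remaining members' values were added to complete each role. The members and lists were chosen with earlier results of these data known. Alternatives were the pseudocount, the filter, the window, a peak over a start, a higher threshold, sums of peaks, centring, division by the step, the fitted groups, the replicate block, bands of NTC signal and leaving out each library. The canonical start alone was added after seeing the data. The permutation test on the numbers of marked members was not planned.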

Additional observations from a re-analysis of the deposited data

Results flagged for a closer look

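The difference between METTL3-KO and the other KO groups was tested directly, as one contrast in the fit over all 9 libraries, and 16 of the 30 tested members passed it. The fitted differences on the log2(signal + 30.1) scale were 6.93 for USP1, 5.43 for RAD51B, 5.19 for WDR48, 5.30 for FANCL, 4.66 for UBE2T and 4.78 for BLM. For USP1, RAD51B, FANCL and UBE2T no METTL14-KO or WTAP-KO library listed a peak, so these sizes depend on the pseudocount and are no fold changes. WDR48 and BLM each had a peak in 2 of the 4 other KO libraries. FANCL had a peak in no library outside METTL3-KO, so it entered the test only through the group where it was high and its difference gives no support. RMI1, FANCM and BRIP1, also among the 16, likewise passed the filter only through METTL3-KO. With genes marked in at least 4 libraries 12 members passed. With a peak required over a start USP1 lost its call (1.53, adjusted p = 0.241). With the threshold at the median NTC signal RAD51B and UBE2T had no difference left (adjusted p = 1 for both) and BLM lost its call (6.10, adjusted p = 0.0803).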

How the results depend on the processing

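No library depth, coverage track or separate culture was at hand, and 2 libraries per KO group limit the precision. The number of members called lower for all KO groups stayed between 15 and 21 under every setting tried. Division by the step gave 9 members lower in METTL3-KO, and for the members kept in all NTC and at least 4 KO libraries it moved the percent of NTC signal from 21.5 to 47.0 in METTL3-KO, from 6.66 to 19.2 in METTL14-KO and from 4.0 to 14.2 in WTAP-KO. Members higher for all KO groups were 4 among genes marked in at least 4 libraries, 5 with a peak over a start and 5 with a signal threshold at the median of NTC peaks. Members higher in METTL3-KO were 4 with the filter of 4 libraries and 5 with the signal threshold. With a peak over a start 1 member was higher in METTL14-KO and 1 in WTAP-KO, and with the signal threshold 0 and 0. Members higher in METTL3-KO than in the other KO groups were 9 with a peak over a start, 5 with the signal threshold, 9 after centring and 9 after division by the step. Members with no METTL3-KO peak were 2 with a peak over a start and 10 with the signal threshold, and those with no KO peak were 10 with that threshold and 5 when 2 NTC libraries sufficed. A peak over a start left means of 19 marked members in NTC, 18 in METTL3-KO and 4.5 in WTAP-KO, and the signal threshold left 18 in NTC, 10.5 in METTL3-KO, 2.5 in METTL14-KO and 0.5 in WTAP-KO. The cause of these shifts was not tested.

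BRCA1 turned from higher to lower for all KO groups with 10 times the pseudocount (-0.53), the signal threshold (-0.41), the replicate block (-2.70), the canonical start (-1.51) and without NTC replicate 3 (-2.70; 2.10 without NTC replicate 1), and RMI1 with the 3 kb window (-4.10). Leaving out each library gave 18 to 21 members lower and 4 to 8 higher for all KO groups, 14 to 16 and 5 to 8 for METTL3-KO, 17 to 21 and 2 to 5 for METTL14-KO, 17 to 21 and 2 to 3 for WTAP-KO, and 8 to 16 higher in METTL3-KO than in the other KO groups. Members with no peak ranged from 4 to 8 in METTL3-KO, 13 to 16 in METTL14-KO, 14 to 16 in WTAP-KO and 3 to 7 in all KO groups. The lowest count higher for all KO groups (4), the 5 higher in METTL3-KO, the 8 and the 7 came without METTL3-KO replicate 1, and the 5 higher in METTL14-KO without METTL14-KO replicate 2. Without METTL3-KO replicate 2 the number higher for all KO groups was 5. Libraries of the same replicate number did not deviate together (mean correlation 0.00586 over 12 combinations), and with the replicate block 20 members were lower and 6 higher for all KO groups and 11 higher in METTL3-KO than in the other KO groups. FANCM, BRCA2 and BRIP1 lost and BARD1 and BRCA1 gained a call under the block. Replicate 3 was in NTC alone, so its block term takes up that library. The block is therefore no check apart from leaving out NTC replicate 3. Both settings gave the same changes for BRCA1 (-2.70) and BARD1 (-5.28), so the turns of BRCA1 under them are not separate results.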
